A study of Arabidopsis thaliana with 15 samples.

Results

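Arabidopsis leaves make flavonols, which act as ultraviolet screens, and anthocyanins, the red and purple pigments, from one chain of enzymes. The genes described here are 9 of the 33024 in the deposited table, chosen by identifier for their place in that chain. CHS, CHI, F3H and F3'H encode the shared early enzymes. FLS1 opens the flavonol branch. DFR and LDOX open the anthocyanin branch. MYB12 is an activator of the flavonol genes, and MYB75, also called PAP1, is an activator of the anthocyanin genes. On TAIR10.1 CHS (AT5G13930) lies at chr5:4488476-4490264, CHI (AT3G55120) at chr3:20430059-20431597, F3H (AT3G51240) at chr3:19025192-19026872 and F3'H (AT5G07990) at chr5:2560328-2563137. FLS1 (AT5G08640) lies at chr5:2803833-2805606, DFR (AT5G42800) at chr5:17164093-17166032, LDOX (AT4G22880) at chr4:12004726-12006209, MYB12 (AT2G47460) at chr2:19476326-19479597 and MYB75 (AT1G56650) at chr1:21233555-21235292. The question asked of them was how the flavonol branch stood against the anthocyanin branch in each of 5 genotypes.

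RNA-seq counted leaf transcripts of Columbia plants harvested 21 days after germination from a greenhouse with long days (16 h of light, 8 h of dark, 23 °C). The genotypes were the single mutants pp1r3-2 and topp4-1, the septuple topp mutant topp-7m, the double mutant pp1r3-2 topp4-1, and wild type, with 3 libraries each. TOPP genes encode catalytic subunits of type 1 protein phosphatase, and topp4-1 is described in earlier work as a dominant-negative point mutation in TOPP4. Which TOPP genes are mutated in topp-7m, and what the pp1r3-2 allele does, the labels leave unsaid. No treatment is named, and the labels do not state whether replicate libraries stem from different plants. All p-values below therefore measure library-to-library spread that may be technical.

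Library totals ran from 17962200 to 20756997 counts. TOPP4, which checks the labels, was at 5.04 to 5.66 CPM (counts per 1000000 of the library, scaled for composition) in topp-7m, 34.6 to 38.2 CPM in topp4-1 and 29.4 to 32.9 CPM in wild type, and 5 of the 9 TOPP genes passed as lower in topp-7m. A point mutation need not lower its transcript, so the TOPP4 level checks topp-7m but not topp4-1. PP1R3 transcript was not analysed here. Wild-type replicate 3 stood apart by its share of chloroplast-encoded counts (0.0813%, against at most 0.0208% in the others), and pp1r3-2 topp4-1 replicate 3 by its median gene deviation from its replicates (0.209 on the log2 scale, at most 0.176 in the others). Results that rest on these libraries are given with and without them. In whole leaves, fewer cells of a type and less RNA per cell cannot be told apart.

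As background, chalcone synthase (CHS) joins a phenylpropanoid starter unit with malonyl units, chalcone isomerase (CHI) closes the ring, and flavanone 3-hydroxylase (F3H) gives a dihydroflavonol. Flavonol synthase (FLS1) and dihydroflavonol reductase (DFR) compete for that dihydroflavonol. In Arabidopsis seedlings the flavonol genes answer mainly to MYB11, MYB12 and MYB111, and the late anthocyanin genes to a complex of a MYB protein such as MYB75, a bHLH protein and the WD40 protein TTG1.

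The expression of CHS and FLS1 fell together in topp4-1 against wild type, whereas DFR did not pass the test there (log2 -0.37). LDOX did not pass either, but it stood at log2 -1.66, with its topp4-1 libraries below those of wild type. The anthocyanin enzyme genes thus did not share one course. To set these genes side by side, the promoters of CHS, FLS1, DFR and LDOX are shown. Each is the 300 bases before the annotated gene start, read 5′ to 3′ on the gene's strand from the RefSeq TAIR10.1 assembly: chr5:4488176-4488475 (plus strand) for CHS, chr5:2803533-2803832 (plus strand) for FLS1, chr5:17166033-17166332 (minus strand) for DFR and chr4:12006210-12006509 (minus strand) for LDOX. Capitals mark matches on either strand to ACGT, the core bound by bZIP proteins such as HY5, and to the MYB-type patterns ACCNACC and ACCNAAC.
CHS: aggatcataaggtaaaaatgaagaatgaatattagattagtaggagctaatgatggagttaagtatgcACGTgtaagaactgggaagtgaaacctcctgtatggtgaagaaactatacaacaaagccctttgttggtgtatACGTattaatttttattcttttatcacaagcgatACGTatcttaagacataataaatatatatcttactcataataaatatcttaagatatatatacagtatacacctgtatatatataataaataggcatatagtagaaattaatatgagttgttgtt
FLS1: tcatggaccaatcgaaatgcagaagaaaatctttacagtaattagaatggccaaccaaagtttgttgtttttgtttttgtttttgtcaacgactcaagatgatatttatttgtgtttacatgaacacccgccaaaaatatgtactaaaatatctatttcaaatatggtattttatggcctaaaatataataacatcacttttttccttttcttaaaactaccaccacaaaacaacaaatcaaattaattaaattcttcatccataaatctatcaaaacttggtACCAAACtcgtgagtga
DFR: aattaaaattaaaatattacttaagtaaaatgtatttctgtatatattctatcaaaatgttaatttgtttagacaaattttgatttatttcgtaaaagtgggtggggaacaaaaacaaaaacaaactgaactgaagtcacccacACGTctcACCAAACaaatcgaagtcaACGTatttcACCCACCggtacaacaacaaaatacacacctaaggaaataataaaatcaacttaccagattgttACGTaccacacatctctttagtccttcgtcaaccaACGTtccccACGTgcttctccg
LDOX: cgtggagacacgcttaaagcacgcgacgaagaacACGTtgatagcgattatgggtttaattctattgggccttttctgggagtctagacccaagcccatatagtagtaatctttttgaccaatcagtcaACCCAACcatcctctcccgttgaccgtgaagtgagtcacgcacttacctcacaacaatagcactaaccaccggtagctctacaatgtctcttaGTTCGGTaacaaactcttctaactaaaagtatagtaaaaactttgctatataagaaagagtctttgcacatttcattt

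The CHS promoter held ACGT 3 times and neither MYB-type pattern. FLS1 held no ACGT and ACCNAAC once, 17 bases before the gene start. The DFR window was the richest of the 4, with ACGT 5 times, ACCNACC once and ACCNAAC once, and LDOX held ACGT once and ACCNAAC 2 times. Over 27419 promoters of protein-coding genes of the same length, ACGT was found in 48.9%, ACCNACC in 7.09% and ACCNAAC in 16.8%. CACGTG, which contains ACGT, was in 7.08% of them and matched once each in CHS and DFR. A match describes the letters in this window only.

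Of the 9 genes, 8 were detected and tested. F3H had 0 counts in all 15 libraries. Of its 1508 exon bases, 1415 (93.8%) are also exon of AT3G51238, a long non-coding RNA gene on the opposite strand, which was at 0 as well. Among genes counted here, 487 of 539 protein-coding genes (90.4%) with at least 90% of their exon bases shared were at 0 throughout, against 3043 of 19941 (15.3%) with none shared. F3H is therefore treated as not measured, and no limit is placed on its level. None of the other members shares more than 2 exon bases with another gene. MYB12 was scarce, with 2 to 15 counts per library, so its fold changes are imprecise.

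CHS was the most abundant of the group per length, with a mean of 88.2 CPM per kilobase in wild type. FLS1 followed at 23.7, CHI at 17.2, DFR at 16.0 and LDOX at 15.2, while F3'H (3.47), MYB75 (1.27) and MYB12 (0.223) lay far below. All values that follow are plain CPM unless a length is named.

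The clearest difference was in topp4-1. The shared gene CHS and the flavonol gene FLS1 fell to a small part of their wild-type level, CHI fell less far, and the anthocyanin activator MYB75 rose, while DFR did not pass the test in either direction. In the double mutant pp1r3-2 topp4-1 the libraries overlapped the wild-type range for all 4 of these genes.

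Among the shared enzymes, CHS was at 155, 149 and 120 CPM in pp1r3-2, 21.6, 20.9 and 18.8 in topp4-1, 98.8, 109 and 152 in topp-7m, 205, 111 and 145 in pp1r3-2 topp4-1, and 159, 135 and 157 in wild type. The 3 topp4-1 libraries were the lowest of the 15, far below every other one, and the remaining 4 genotypes overlapped. CHI was at 15.3, 15.1 and 13.8 CPM in pp1r3-2, 5.08, 5.73 and 6.40 in topp4-1, 13.7, 11.1 and 12.8 in topp-7m, 19.1, 17.5 and 15.8 in pp1r3-2 topp4-1, and 18.3, 17.8 and 21.4 in wild type. Again no topp4-1 library overlapped another genotype, and here pp1r3-2 and topp-7m also lay wholly below wild type. F3'H, whose enzyme adds the hydroxyl group that separates quercetin and cyanidin from their simpler relatives, ran at 2.94, 4.29 and 3.07 CPM in pp1r3-2, 6.0, 5.52 and 5.44 in topp4-1, 4.89, 2.78 and 4.56 in topp-7m, 6.22, 4.69 and 2.88 in pp1r3-2 topp4-1, and 5.25, 6.55 and 8.29 in wild type. Unlike CHS and CHI, it was not low in topp4-1, and pp1r3-2 and topp-7m lay below the whole wild-type range.

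FLS1, the entry to the flavonols, was at 33.9, 27.5 and 20.8 CPM in pp1r3-2, 2.29, 2.63 and 3.20 in topp4-1, 27.0, 23.6 and 23.6 in topp-7m, 40.3, 25.2 and 32.0 in pp1r3-2 topp4-1, and 35.2, 38.3 and 41.5 in wild type. Its topp4-1 values were below all others by a wide gap, and its pp1r3-2 and topp-7m values were below all 3 of wild type. MYB12 ran from 0.206 to 0.640 CPM in topp4-1 and from 0.258 to 0.531 in wild type, with overlap. It was at 0.265 to 0.390 CPM in pp1r3-2, 0.111 to 0.157 in topp-7m (2 or 3 counts a library) and 0.113 to 0.773 in pp1r3-2 topp4-1, and topp-7m alone lay below the wild-type range without overlap.

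In the anthocyanin branch, DFR was at 26.0, 23.3 and 12.7 CPM in pp1r3-2, 19.8, 20.3 and 16.6 in topp4-1, 19.9, 8.50 and 23.8 in topp-7m, 37.6, 26.9 and 4.01 in pp1r3-2 topp4-1, and 10.7, 22.4 and 40.1 in wild type. All genotypes overlapped, and the widest spread lay inside the double mutant and wild type. LDOX, which makes the coloured anthocyanidin, was at 13.5, 13.2 and 5.99 CPM in pp1r3-2, 7.98, 7.22 and 4.98 in topp4-1, 16.4, 5.17 and 15.9 in topp-7m, 21.7, 18.0 and 2.77 in pp1r3-2 topp4-1, and 10.2, 21.5 and 32.2 in wild type. All 3 topp4-1 libraries lay below all 3 of wild type, but within the range of the other mutants. MYB75 was at 0.911, 2.57 and 1.17 CPM in pp1r3-2, 6.61, 7.38 and 7.22 in topp4-1, 1.25, 1.17 and 0.524 in topp-7m, 1.15, 0.567 and 0.508 in pp1r3-2 topp4-1, and 0.911, 1.29 and 2.02 in wild type. Its topp4-1 libraries stood above all the others without overlap.

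**Figure D1:**
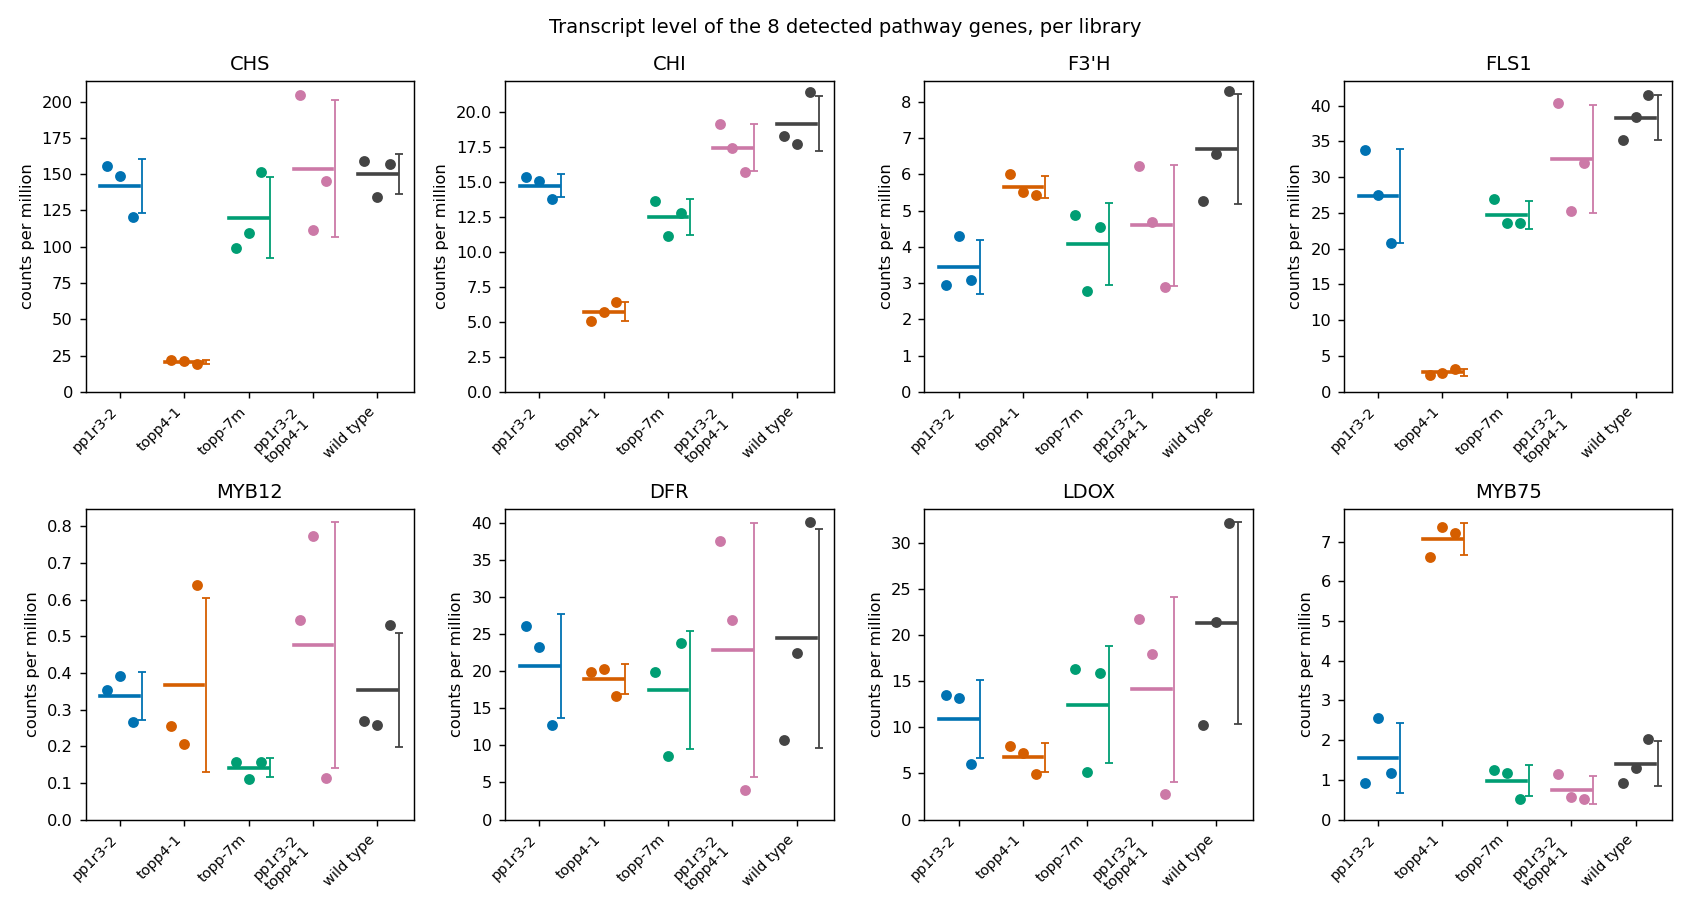
CPM (linear axis) of the 8 detected genes in each library, by genotype; points are libraries, horizontal bars the mean of 3 and whiskers the SD. The topp4-1 points are lowest for CHS, CHI and FLS1 and highest for MYB75, while DFR and LDOX spread widely within genotypes.

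Against wild type, topp4-1 changed 4 of the 8 tested members: 3 fell and 1 rose. Across all 20037 tested genes, 53.5% passed in this comparison (26.5% lower, 27.0% higher), so the count itself is close to the background. The sizes were large. FLS1 fell 14.1-fold (log2 -3.81 ± 0.21, SE, adjusted p = 5.9e-09, edgeR quasi-likelihood test with Benjamini-Hochberg adjustment over all tested genes, n = 3 a group, as for every adjusted p below). CHS fell 7.35-fold (log2 -2.88 ± 0.21, adjusted p = 9.51e-08) and CHI 3.33-fold (log2 -1.74 ± 0.13, adjusted p = 5.31e-08). The single gene to rise was MYB75, which was 5.01-fold higher (log2 2.32 ± 0.40, adjusted p = 0.000161). The median log2 fold change of the 8 members was -1.02, and of all tested genes 0.01.

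The remaining 4 did not pass. LDOX stood at log2 -1.66 ± 0.68 (adjusted p = 0.0566), and it passed with DESeq2 (adjusted p = 0.0316), in a fit of only the compared libraries (0.0230), and without pp1r3-2 topp4-1 replicate 3 (0.0164), wild-type replicate 1 (0.0354) or topp-7m replicate 2 (0.0461). DFR was at log2 -0.37 ± 0.67 (adjusted p = 0.670), F3'H at -0.24 ± 0.27 (0.459) and MYB12 at 0.08 ± 0.62 (0.926). The standard error of DFR is more than 3 times that of FLS1, so a moderate change of DFR was not detectable here.

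The same 4 genes separated the double mutant from topp4-1, in the other direction. In pp1r3-2 topp4-1 over topp4-1, FLS1 was 11.9-fold higher (log2 3.58 ± 0.21, adjusted p = 1.97e-08), CHS 7.52-fold higher (2.91 ± 0.21, adjusted p = 1.26e-07) and CHI 3.04-fold higher (1.60 ± 0.13, adjusted p = 1.76e-07). MYB75 was lower, by 3.25 ± 0.43 on the log2 scale (adjusted p = 2.03e-05). Of all tested genes, 43.3% passed in this comparison. DFR (0.27 ± 0.67), LDOX (1.08 ± 0.68), F3'H (-0.30 ± 0.27) and MYB12 (0.37 ± 0.60) did not pass. LDOX passed without pp1r3-2 topp4-1 replicate 3 (adjusted p = 0.0390).

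The double mutant was next set against the genotypes that lack topp4-1. In pp1r3-2 topp4-1 over wild type 0 of 8 members passed, with 13.1% of all genes called (7.65% higher, 5.47% lower). At an unadjusted p under 0.05 edgeR gave 0 members and DESeq2 gave 1, MYB75, and DESeq2 called 0 after adjustment. Fold changes were 0.03 ± 0.19 for CHS, -0.13 ± 0.12 for CHI, -0.24 ± 0.17 for FLS1 and -0.92 ± 0.46 for MYB75 (log2). In pp1r3-2 topp4-1 over pp1r3-2 0 of 8 passed too, with 0.0349% of all genes (7 genes) called. There both tools gave 1 member at an unadjusted p under 0.05, MYB75 (log2 -1.05 ± 0.45), and DESeq2 called 0 after adjustment.

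The dependence on pp1r3-2 was tested directly, as the fold change that topp4-1 gave among pp1r3-2 plants less the one it gave in wild type. It was called for 4 of 8 members, where 38.3% of all genes passed (19.0% higher, 19.3% lower). The log2 difference was 4.06 ± 0.27 for FLS1 (adjusted p = 1.29e-07), 3.00 ± 0.28 for CHS (adjusted p = 2.61e-06), 1.98 ± 0.18 for CHI (adjusted p = 9.5e-07) and -3.37 ± 0.60 for MYB75 (adjusted p = 0.000435). For LDOX the difference was 2.04 ± 0.94 (adjusted p = 0.111), and 0.0181 without pp1r3-2 topp4-1 replicate 3. F3'H (0.67 ± 0.39, adjusted p = 0.189) passed without that library too (0.0451). DFR was at 0.51 ± 0.94 (0.703) and MYB12 at 0.43 ± 0.88 (0.730).

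**Figure D2:**
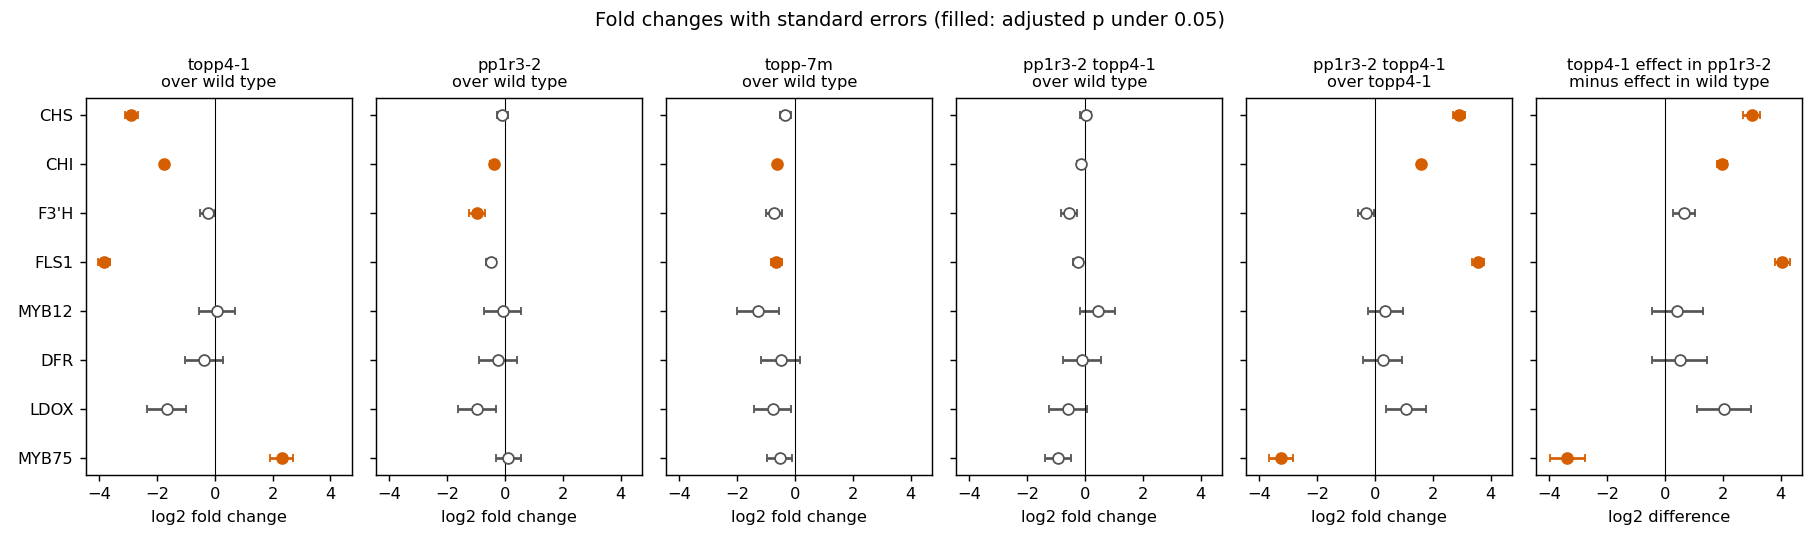
Log2 fold change (x axis) with its SE for each tested member in 5 comparisons, and in the last panel the log2 difference between the effects of topp4-1 in pp1r3-2 and in wild type; filled points have an adjusted p under 0.05. FLS1, CHS and CHI lie left of 0 and MYB75 right of it in topp4-1, and on the opposite sides in the double mutant over topp4-1 and in the last panel.

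The effects of pp1r3-2 alone were small. CHI (log2 -0.38 ± 0.12, adjusted p = 0.0393) and F3'H (-0.97 ± 0.28, adjusted p = 0.0232) fell, which is 2 of 8 members where 19.3% of all genes passed (8.33% lower). FLS1 stood at -0.48 ± 0.17 (adjusted p = 0.0631) and CHS at -0.09 ± 0.19 (0.799). FLS1 passed with DESeq2 (0.0421) and without pp1r3-2 replicate 1 (0.0190) or pp1r3-2 topp4-1 replicate 1 (0.0388) or 2 (0.0420). The CHI and F3'H calls depended on single libraries. Without pp1r3-2 replicate 3 the adjusted p was 0.131 for CHI and 0.0837 for F3'H, without wild-type replicate 2 it was 0.0514 and 0.0556, and without wild-type replicate 3 it was 0.167 and 0.108. Leaving out pp1r3-2 replicate 1 gave 0.0550 for CHI and 0.0752 for F3'H. CHI was also lost without pp1r3-2 replicate 2 (0.0715), topp4-1 replicate 2 (0.0507) or pp1r3-2 topp4-1 replicate 2 (0.0518).

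In topp-7m, CHI fell by 0.61 ± 0.12 on the log2 scale (adjusted p = 0.00396) and FLS1 by 0.63 ± 0.17 (adjusted p = 0.0284), again 2 of 8 members, with 11.6% of all genes called (6.18% higher, 5.46% lower). The CHI call held in all 22 refits (adjusted p at most 0.0270), though its size is below a log2 fold change of 1. That of FLS1 was lost without topp-7m replicate 2 (0.0943) or 3 (0.0984), or without wild-type replicate 2 (0.0746) or 3 (0.101). CHS stood at -0.33 ± 0.19 (0.313), F3'H at -0.71 ± 0.27 (0.106), MYB75 at -0.52 ± 0.44 (0.501) and MYB12 at -1.27 ± 0.73 (0.294). These 3 comparisons and the double mutant share the same wild-type libraries.

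Set directly against topp4-1, topp-7m had higher FLS1 (log2 3.18 ± 0.21), CHS (2.55 ± 0.21) and CHI (1.12 ± 0.13) and lower MYB75 (-2.85 ± 0.41), 4 of 8 members where 37.8% of all genes were called (18.5% lower). The septuple mutant and topp4-1, both carrying lesions in TOPP genes, thus differed in these members by more than the spread between libraries. In topp-7m over pp1r3-2 0 of 8 members passed, and 1.71% of all genes did (1.26% lower); both tools also gave 0 members at an unadjusted p under 0.05. CHI was lower in topp-7m than in pp1r3-2 topp4-1 (-0.48 ± 0.12, adjusted p = 0.0465, where 2.83% of genes were called, 0.818% higher and 2.01% lower), a call that 15 of 22 alternatives did not keep.

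Ordered by mean level, FLS1, CHI and CHS each had topp4-1 last, and the step from topp-7m to topp4-1 was the single step between neighbours that passed the test. For MYB75 topp4-1 came first, and the step down to pp1r3-2 was again the single one that passed (log2 2.20 ± 0.39, adjusted p = 0.000359). DFR averaged 17.4 CPM in topp-7m, its lowest genotype, and 24.4 in wild type, its highest. LDOX averaged 6.73 CPM in topp4-1, its lowest, and 21.3 in wild type, its highest. F3'H was lowest in pp1r3-2 (3.43 CPM) and highest in wild type (6.70), and MYB12 lowest in topp-7m (0.141) and highest in pp1r3-2 topp4-1 (0.477). No neighbouring genotypes in the orders of these 4 genes passed. Apart from neighbours, F3'H was higher in topp4-1 than in pp1r3-2 (log2 0.72 ± 0.28, adjusted p = 0.0463; 43.4% of genes were called), a call that 10 of 22 alternatives did not keep.

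Per length, the balance at the branch point differed most in topp4-1. The ratio of FLS1 to DFR, as CPM per kilobase, ran from 0.108 to 0.181 in topp4-1. It was 1.11 to 1.53 in pp1r3-2, 0.933 to 2.60 in topp-7m, 0.880 to 7.49 in pp1r3-2 topp4-1 and 0.972 to 3.08 in wild type. On the log2 scale the mean was -2.90 ± 0.39 in topp4-1 and 0.76 ± 0.83 in wild type (SD, n = 3 each). No topp4-1 library overlapped any other genotype. In the double mutant the mean was 0.91 ± 1.73 and rested on replicate 3, at 2.90, while replicates 1 and 2 were at 0.01 and -0.18. Wild-type replicates 1, 2 and 3 were at 1.62, 0.69 and -0.04. The nearness of these 2 means therefore depends on the replicate 3 libraries.

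FLS1 over LDOX was also lowest in topp4-1 without overlap, with a log2 mean of -1.51 ± 0.60 in topp4-1 and 0.79 ± 0.72 in wild type. Among the shared genes, CHS over DFR had a log2 mean of -0.05 ± 0.07 in topp4-1 and 2.65 ± 0.98 in wild type. For the regulators, MYB12 over MYB75 was -4.97 ± 0.86 in topp4-1 and -2.52 ± 0.29 in wild type, and the MYB12 side rests on few counts. These ratios carry no test of their own.

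**Figure D3:**
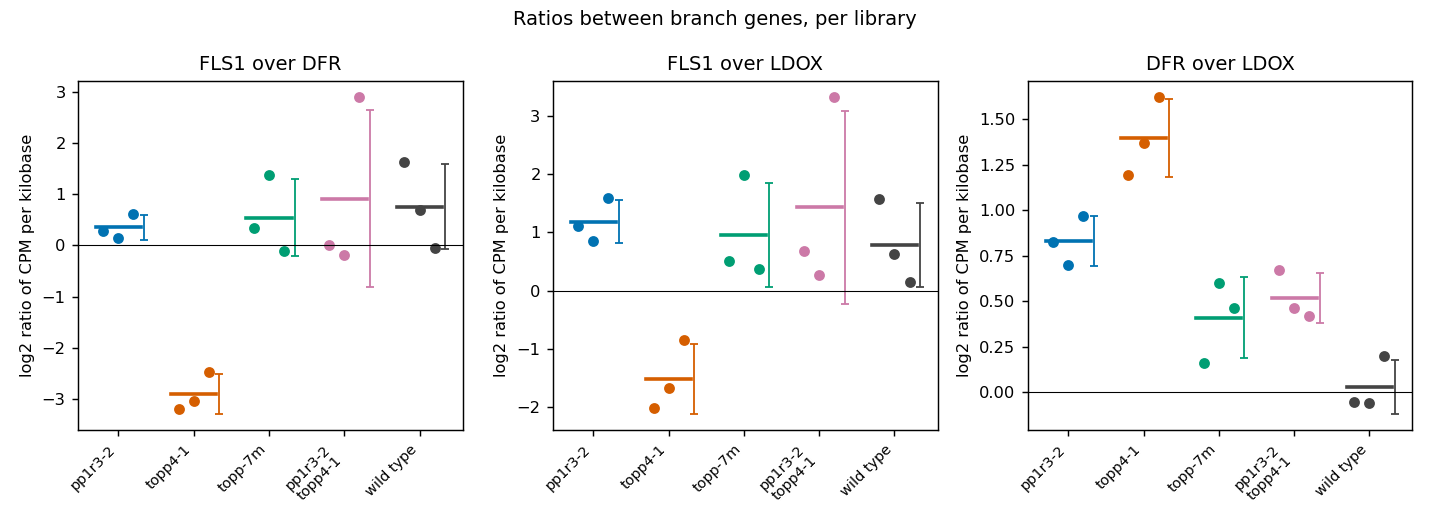
Log2 ratio, per library, of CPM per kilobase for FLS1 over DFR, FLS1 over LDOX and DFR over LDOX, by genotype; points are libraries, bars the mean of 3 and whiskers the SD. The topp4-1 libraries are lowest in the first and second panel and highest in the third.

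Within the anthocyanin branch the 2 enzyme genes differed from each other. DFR over LDOX had a log2 mean of 0.83 ± 0.14 in pp1r3-2, 1.40 ± 0.21 in topp4-1, 0.41 ± 0.22 in topp-7m, 0.52 ± 0.14 in pp1r3-2 topp4-1 and 0.03 ± 0.15 in wild type. Of the 3 wild-type libraries, 2 lay below the lowest mutant value of 0.16, and replicate 3 was at 0.20. The 3 topp4-1 libraries lay above every other one. The SD of this ratio was at most 0.22, while DFR alone had a coefficient of variation of 75.1% in pp1r3-2 topp4-1 and 60.6% in wild type.

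The spread of DFR and LDOX within genotypes was shared between them. DFR differed 9.37-fold between the highest and lowest library of pp1r3-2 topp4-1, 3.74-fold in wild type, 2.80-fold in topp-7m, 2.05-fold in pp1r3-2 and 1.22-fold in topp4-1. The low libraries were pp1r3-2 topp4-1 replicate 3, topp-7m replicate 2, pp1r3-2 replicate 3, topp4-1 replicate 3 and wild-type replicate 1 for both genes. By contrast FLS1 had coefficients of variation of 7.93% to 23.9%. The library with the highest DFR and LDOX, wild-type replicate 3, and that with the lowest, pp1r3-2 topp4-1 replicate 3, were those that stood apart in the whole data. Without both, DFR in topp4-1 over wild type turned from log2 -0.37 to 0.16 and was again not called (adjusted p = 0.789, edgeR quasi-likelihood test). Further refits without them are given below. Why these libraries stood apart was not tested.

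TT19, a glutathione S-transferase that carries anthocyanins to the vacuole, was the gene most like DFR over the 15 libraries (Pearson r = 0.967 of log2 CPM, over 14969 genes compared). It stood at 15.9, 10.8 and 2.65 CPM in pp1r3-2 topp4-1 and at 5.90, 11.1 and 17.6 in wild type, so the same libraries were high and low. LSH3 (0.909), UGT75C1, an anthocyanin glucosyltransferase (0.874), CLE41 (0.869) and AT1G07660 (0.860) followed. These r values are descriptions; the points share genotypes and libraries.

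The genes most like FLS1 were other ones. UGT78D1, which attaches rhamnose to flavonols, had r = 0.993, CHIL, a non-catalytic chalcone isomerase-like protein that promotes flavonoid production, 0.992, AT5G18460 0.992, the mannan synthase gene CSLA9 0.990 and the pyrophosphatase gene PPA6 0.989. UGT78D1 was at 4.53, 4.39 and 7.54 CPM in topp4-1, against 51.9, 49.6 and 61.1 in wild type, with no overlap. CSLA9 was at 4.17, 2.68 and 4.44 CPM in topp4-1, against 44.7, 48.6 and 48.1 in wild type. Both genes were picked for likeness to FLS1, whose topp4-1 libraries lie far below the rest. Low topp4-1 values are therefore part of that choice.

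**Figure D4:**
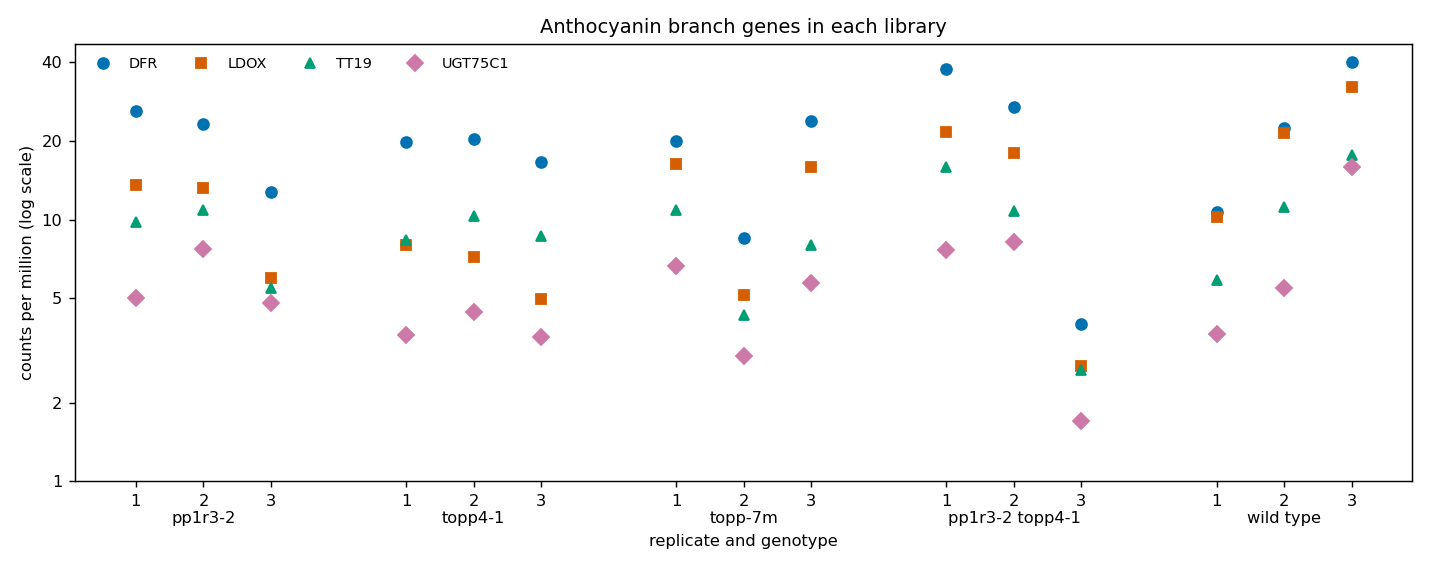
CPM (log axis) of DFR, LDOX, TT19 and UGT75C1 in each of the 15 libraries, grouped by genotype. The 4 genes are lowest together in pp1r3-2 topp4-1 replicate 3 and highest together in wild-type replicate 3.

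The steps before and around the pathway were read from lists of other genes. Of 8 general phenylpropanoid genes, which supply the starter unit, 6 fell and 1 rose in topp4-1 over wild type (median log2 -0.77), where 26.5% of all tested genes were lower and 27.0% higher. 4CL3, the coumarate-CoA ligase linked to flavonoids, fell most (-3.20 ± 0.25, adjusted p = 9.45e-08), to 0.915, 1.44 and 2.29 CPM in topp4-1, against 15.6, 12.8 and 15.0 in wild type. PAL2, a phenylalanine ammonia-lyase, fell by 1.43 ± 0.12 and PAL1 by 0.88 ± 0.15 on the log2 scale, while C4H rose (0.39 ± 0.09). Over topp4-1, the double mutant pp1r3-2 topp4-1 had 5 of the 8 higher, 4CL3 by 3.20 ± 0.25 and PAL2 by 1.33 ± 0.12, and 2 lower, where 21.4% of all tested genes were higher and 21.9% lower.

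Of 8 flavonol regulators and light-signalling genes, 7 were tested. MYB111, a flavonol MYB gene like MYB12, had 0.458, 0.206 and 0.549 CPM in topp4-1, against 6.27, 4.54 and 5.63 in wild type, with no overlap (log2 -3.72 ± 0.34, adjusted p = 4.16e-07). It was thus the flavonol MYB gene that fell, while MYB12 did not pass and MYB11 was too scarce to test. RUP1, a repressor of the ultraviolet-B receptor UVR8, also fell in topp4-1 (-0.66 ± 0.14), and HY5, HYH, UVR8, RUP2 and COP1 did not pass. In pp1r3-2 over wild type 5 of the 7 rose, where 10.9% of all tested genes were higher, among them RUP1 (0.81 ± 0.14) and RUP2 (0.79 ± 0.15), and 0 fell. HYH and COP1 were no longer called without pp1r3-2 replicate 1 (adjusted p = 0.0868 and 0.0941) or wild-type replicate 2 (0.0536 and 0.0639), which leaves at most 3 of 7. In pp1r3-2 topp4-1 over topp4-1 MYB111 was higher by 4.30 ± 0.34 (adjusted p = 1.42e-07) and 4 other genes of the list rose, where 21.4% of all tested genes were higher.

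Of 11 genes of flavonol synthesis and decoration, 8 were tested, and 5 fell and 2 rose in topp4-1 (median log2 -0.42), with 26.5% of all tested genes lower and 27.0% higher. CHIL fell by 3.35 ± 0.22 (adjusted p = 2.18e-08) and UGT78D1 by 3.29 ± 0.20 (adjusted p = 1.31e-08). FLS5 and FLS2, paralogues of FLS1 that lie in a cluster of their own and whose reads could be split between copies, rose by 3.02 ± 0.47 and 1.19 ± 0.26. FLS5 was at 7.93, 6.30 and 8.92 CPM in topp4-1, against 0.697, 1.44 and 0.691 in wild type. In the double mutant over topp4-1 4 rose and 1, FLS5, fell (-3.07 ± 0.47), with 43.3% of all tested genes called.

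Of 9 genes of anthocyanin decoration and transport, 3 rose and 1 fell in topp4-1 (median log2 -0.55) and 5 did not pass, a share of calls below the 53.5% of all tested genes. BGLU10, an anthocyanin glucosyltransferase, rose by 0.91 ± 0.15, and the acyltransferase genes 3AT1 and 3AT2, which are close copies, by 0.62 ± 0.15 and 0.40 ± 0.15. The 3AT2 call was lost when any 1 of 7 libraries was left out. UGT84A2, a sinapate glucosyltransferase, fell by 1.02 ± 0.14 on the log2 scale. TT19 (-0.34 ± 0.54) and UGT75C1 (-1.10 ± 0.57) did not pass, as DFR did not.

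Among the partners of MYB75 TTG1 alone rose with it. In the list of the MYB-bHLH-WD40 complex, 4 of 7 genes fell and 1 rose in topp4-1 over wild type, where 26.5% of all tested genes were lower and 27.0% higher. TT8, the bHLH gene, was at 0.763, 1.39 and 0.914 CPM in topp4-1, against 1.88, 5.11 and 5.42 in wild type (log2 -2.01 ± 0.44, adjusted p = 0.00125). GL3, a second bHLH gene, fell too (-1.59 ± 0.53, adjusted p = 0.0199), a call lost without wild-type replicate 3 (0.169) or topp4-1 replicate 2 (0.0658). EGL3 was at -1.12 ± 0.69 (adjusted p = 0.180; 0.0393 without pp1r3-2 topp4-1 replicate 3), and TTG1 rose by 0.62 ± 0.11 (adjusted p = 0.000216).

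MYB113 and MYB114 are tandem copies close to MYB90, and reads may be split among them. MYB113 fell to 3 counts over the 3 topp4-1 libraries, against 119 over those of wild type (adjusted p = 0.00197), and MYB114 to 12 counts, against 66 (adjusted p = 0.00963). MYB90, also called PAP2, was at 5.19, 3.41 and 2.15 CPM in topp4-1 and 2.30, 1.91 and 1.75 in wild type, and did not pass (0.84 ± 0.40, adjusted p = 0.0882; 0.0445 without topp4-1 replicate 3). It was lower in pp1r3-2 topp4-1 than in topp4-1 (-1.53 ± 0.42, adjusted p = 0.00814), a call lost without topp4-1 replicate 1 (0.0612). MYB113 passed as higher there (43 counts over pp1r3-2 topp4-1, 3 over topp4-1, adjusted p = 0.0283), and was lost without pp1r3-2 topp4-1 replicate 1 (0.182) or any 1 topp4-1 library (0.0539 to 0.0886). The other 5 genes of the complex did not pass in that comparison, in which 43.3% of all tested genes were called, with TT8 at 0.70 ± 0.46, GL3 at -0.16 ± 0.60, EGL3 at 1.41 ± 0.68 (0.00302 without pp1r3-2 topp4-1 replicate 3), MYB114 at 1.21 ± 0.81 and TTG1 at -0.21 ± 0.11.

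**Figure D5:**
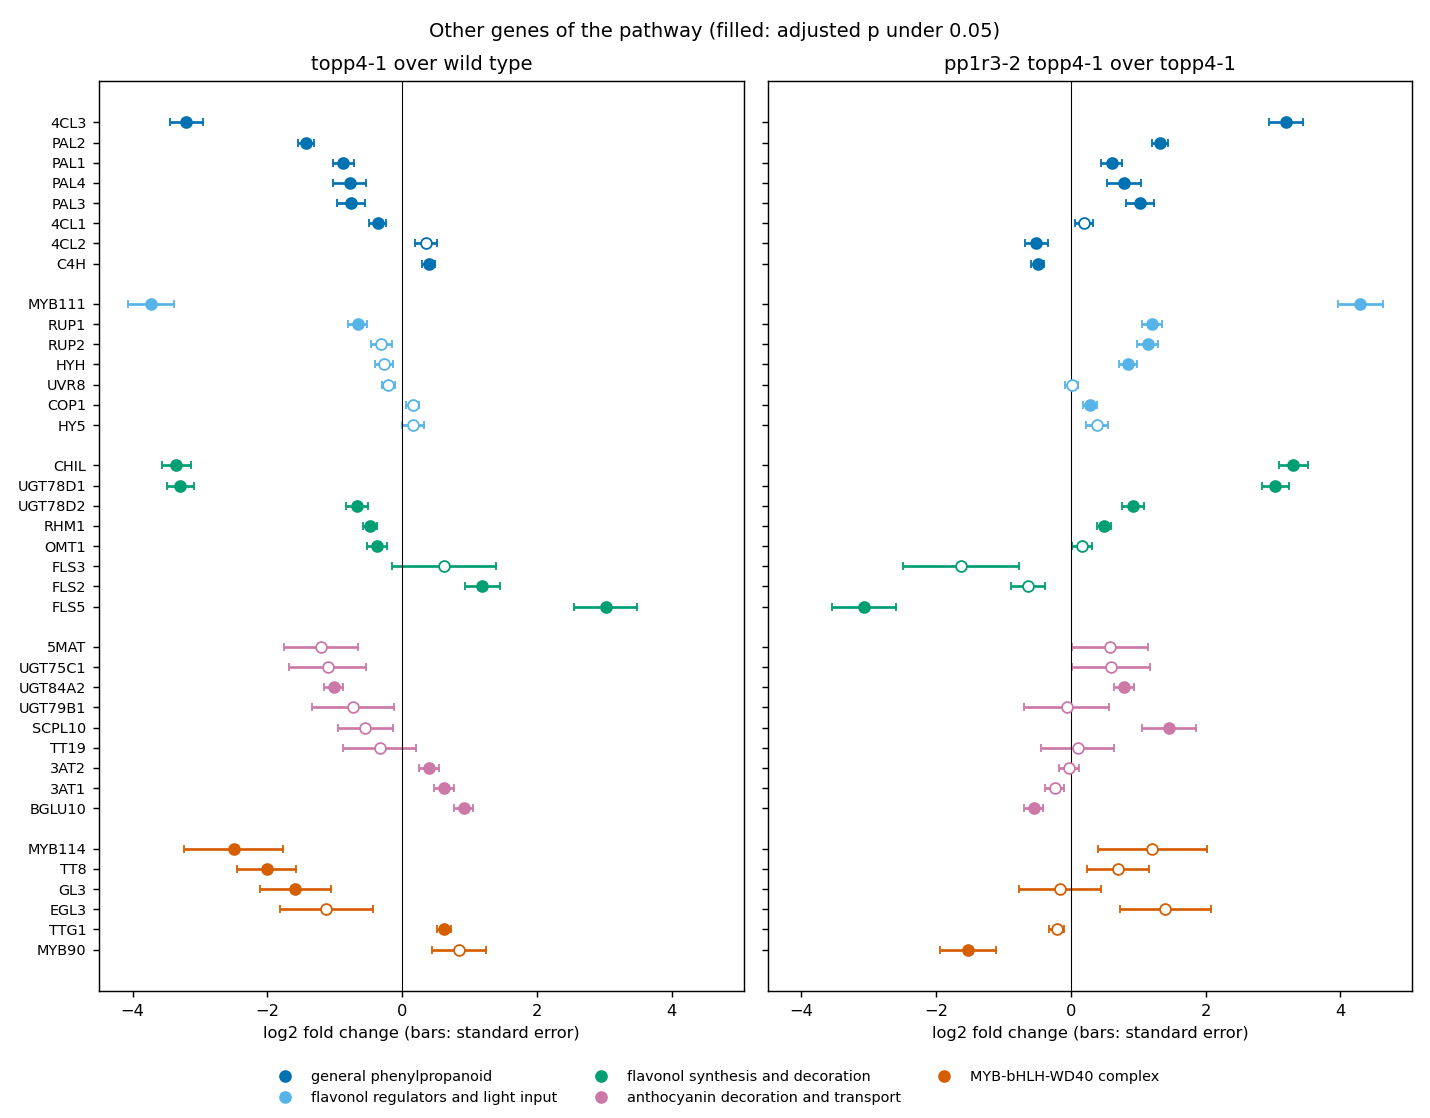
Log2 fold change (x axis) with SE of the tested genes of 5 lists in topp4-1 over wild type (left) and pp1r3-2 topp4-1 over topp4-1 (right), which share the topp4-1 libraries; filled points have an adjusted p under 0.05. MYB113 is left out because it had 3 counts in topp4-1. 4CL3, MYB111, CHIL and UGT78D1 lie near -3 to -4 on the left and 3 to 4 on the right.

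Repressors did not change in one direction. Of 9 anthocyanin repressors, 3 fell and 2 rose in topp4-1, where 53.5% of all tested genes were called (26.5% lower, 27.0% higher). CPL3 fell by 1.40 ± 0.54 on the log2 scale. TRY and ETC1, small MYB proteins that compete within the complex, fell (log2 -3.59 ± 0.57 and -3.13 ± 0.60, with 6 and 7 counts over the topp4-1 libraries, against 72 and 60 over those of wild type). LBD37 (0.42 ± 0.11) and LBD39 (0.35 ± 0.10), which repress anthocyanin genes under nitrate, rose. Among 4 phenylpropanoid MYB repressors MYB3 rose (1.02 ± 0.10), and MYB4 and MYB32 fell (-1.16 ± 0.14 and -1.16 ± 0.24). Of 5 Kelch repeat F-box genes, whose proteins mark PAL or CHS enzymes for degradation, 3 were tested and all 3 rose in topp4-1, KFB20 by 1.53 ± 0.18, KFB01 by 1.18 ± 0.14 and KFB-CHS by 1.04 ± 0.15. The same 3 rose in pp1r3-2 (KFB20 by 1.14 ± 0.18; 10.9% of all tested genes were higher) and in topp-7m (KFB20 by 1.32 ± 0.18; 6.18% were higher). In pp1r3-2 topp4-1 over wild type KFB20 (0.90 ± 0.18) and KFB-CHS (0.79 ± 0.15) rose, where 7.65% of all tested genes were higher, and KFB01 did not pass (0.39 ± 0.14, adjusted p = 0.0696). KFB20 was not called there in a fit of the compared libraries only (0.0525) or without wild-type replicate 3 and pp1r3-2 topp4-1 replicate 3 (0.0647). Of 6 genes of sinapate and lignin precursors, which use the same starter unit, 3 fell in topp4-1, by at most 0.56 ± 0.18 (REF1, adjusted p = 0.0154; 0.0602 without topp4-1 replicate 1).

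Markers of cell types moved in topp4-1 as well, beside 26.5% of all tested genes that were lower there. Of 8 epidermis markers, the layer where leaf flavonols collect, 7 fell and their summed level was 711 to 793 CPM in topp4-1, against 1773 to 2117 in wild type. All 5 guard cell markers fell (16.9 to 21.7 CPM in topp4-1, 42.5 to 49.1 in wild type), as did all 3 trichome markers (3.92 to 5.17 in topp4-1, 11.6 to 18.0 in wild type) and 6 of 7 mesophyll markers (12871 to 14813 in topp4-1, 18949 to 25017 in wild type). The call of the trichome marker GL1 was lost without topp4-1 replicate 1 (adjusted p = 0.0711) or 3 (0.0528). It was also lost without wild-type replicate 3 (0.0983), or without that library and pp1r3-2 topp4-1 replicate 3 together (0.0542). None of these markers was at 0. Set against topp4-1, 7 epidermis, 5 guard cell, 2 trichome and 7 mesophyll markers rose in pp1r3-2 topp4-1, the epidermis sum being 1498 to 1941 CPM there, and 21.4% of all tested genes were higher. Of the 2 trichome markers, TTG2 was no longer called without topp4-1 replicate 1 (adjusted p = 0.122) or 3 (0.109) or pp1r3-2 topp4-1 replicate 1 (0.118) or 2 (0.149), which leaves 1. The epidermis median was log2 -1.30 in topp4-1, against -3.81 for FLS1. The part of these cell types in the fall of the flavonol genes was not tested.

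Flower and seed markers were scarce. The summed level of root markers was higher, but 1 of the 4 passed the low-count filter and the others were too scarce to test. Flower markers summed to 4.75 to 8.09 CPM in topp4-1 and 0.965 to 1.24 in wild type. Of the 5, 1 was tested, PI, and it rose in topp4-1 (log2 4.48), where 27.0% of all tested genes were higher. PI was also higher than in wild type in pp1r3-2 (2.54 ± 0.62, adjusted p = 0.00971; 0.0557 without pp1r3-2 replicate 3). The same held in pp1r3-2 topp4-1 (2.46 ± 0.62, adjusted p = 0.0164), and PI did not pass in topp-7m. Shares of all tested genes higher were 10.9% in pp1r3-2 and 7.65% in pp1r3-2 topp4-1. Seed markers reached at most 1.28 CPM, with CRU3 and SESA3 at 0 in all libraries. Of 5 genes of seed-coat proanthocyanidin, TT10 was at 0 throughout and the 1 that could be tested did not pass. Root markers summed to 230 to 261 CPM in topp4-1 and 104 to 291 in wild type, and the 1 tested of 4 did not pass. Their sum was 94.3 to 294 CPM in pp1r3-2, 128 to 264 in topp-7m and 61.7 to 213 in pp1r3-2 topp4-1. The part of flower tissue in the rise of MYB75 was not tested.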

How the data were processed

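Leaf RNA-seq was measured in 15 libraries, 3 for each of 5 genotypes. The authors deposited 1 table of raw read counts per gene. HISAT2 2.0.5 is named in the submitters' processing notes. How reads were counted, whether by strand, and against which build and annotation is not given in the sources used here. Reads that overlapping genes share could therefore have been dropped or split, which bears on F3H. Gene starts and ends were the same as in RefSeq TAIR10.1 for 32532 of 32548 matched identifiers, all 9 members included, so that assembly supplied promoter sequence and exon overlap.

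Counts were scaled by TMM and tested with edgeR 4.0.16 (R 4.3.3, quasi-likelihood F test, all genotypes in 1 fit, no covariate), after a filter on low counts (minimum count 10, minimum total 15) that left 20037 of 33024 genes. P-values were adjusted over all tested genes by the Benjamini-Hochberg method, with a threshold of 0.05. The SE of a fold change is its size over the square root of F. The fit left 10 residual degrees of freedom, with a biological coefficient of variation of 14.2% in common. The code was tested on simulated data. Likeness is Pearson's r of log2 CPM (prior count 2) over genes averaging 5 CPM or more.

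Alternatives were DESeq2 1.42.0, its size factors in edgeR, filters, a fold threshold, a fit of the compared libraries only, a replicate block and leaving out each library. Leaving out wild-type replicate 3 and pp1r3-2 topp4-1 replicate 3 together was chosen after seeing the data. All replicate pairs differed by more than sampling noise. The members and gene lists were chosen with earlier results of these data known. All 9 members are named, with up to 4 called genes of a list with the smallest adjusted p. Every gene of the MYB-bHLH-WD40 complex is named too, as are the 5 genes most like FLS1 and DFR. Others named, such as flavonol regulators and light-signalling genes that did not pass and the 3AT, TT19 and UGT75C1 values, were chosen after their values were seen.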

Additional observations from a re-analysis of the deposited data

Results flagged for a closer look

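For 4 members the effect of topp4-1 differed between the pp1r3-2 and the wild-type background, tested as the difference of both effects in the edgeR quasi-likelihood fit. The log2 effect in pp1r3-2 minus that in wild type was 4.06 for FLS1, 3.00 for CHS and 1.98 for CHI. It was -3.37 for MYB75. Each kept its direction and its call in all 22 alternatives. No group had more than 3 libraries, so single outlying libraries within a group were not tested.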

How the results depend on the processing

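The calls of FLS1, CHS, CHI and MYB75 in topp4-1 over wild type, in pp1r3-2 topp4-1 over topp4-1 and in the difference of both effects kept direction and threshold under all 22 alternatives, with log2 values in topp4-1 over wild type of -3.98 to -3.73, -2.95 to -2.84, -1.84 to -1.67 and 2.07 to 2.66. The 2 members called in pp1r3-2 were 0 to 3 with 1 library left out, 1 in a fit of the compared libraries only and 1 without wild-type replicate 3 and pp1r3-2 topp4-1 replicate 3. The 2 called in topp-7m were 1 to 2 with 1 library left out and 1 without those libraries together. Both counts were 0 at a log2 fold change of at least 1, since all of these changes are below it. Log2 MYB12 over MYB75 in wild type (-2.52) was -2.004 without gene length and -2.22 with a prior count of 2.

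Fold changes that turned sign were never called. With 1 library left out, in pp1r3-2 over wild type CHS ran from -0.18 to 0.0083, DFR from -0.61 to 0.31, MYB75 from -0.44 to 0.47 and MYB12 from -0.25 to 0.34. In topp4-1 over wild type DFR ran from -0.75 to 0.18 and MYB12 from -0.61 to 0.48, and in topp-7m over wild type DFR from -0.86 to 0.066. In pp1r3-2 topp4-1 over wild type the ranges were -0.23 to 0.22 for CHS, -0.65 to 0.46 for DFR and -0.086 to 0.90 for MYB12. Over topp4-1 they were -0.28 to 0.77 for DFR, -0.41 to 0.19 for GL3 and -0.16 to 1.06 for MYB12. Over pp1r3-2 they were -0.14 to 0.31 for CHS, -0.41 to 0.64 for DFR, -0.062 to 0.86 for LDOX and -0.021 to 0.96 for MYB12. The difference of effects ran from -0.040 to 1.01 for DFR and from -0.10 to 1.13 for MYB12. Without wild-type replicate 3 and pp1r3-2 topp4-1 replicate 3 together, DFR was 0.30 in pp1r3-2, 0.16 in topp4-1, 0.052 in topp-7m and 0.96 in pp1r3-2 topp4-1 over wild type, MYB12 0.33 in pp1r3-2, CHI 0.019 and LDOX 0.32 in pp1r3-2 topp4-1, and GL3 0.21 in pp1r3-2 topp4-1 over topp4-1. The cause was not tested.

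Replicate numbers did not pair the libraries across all genotypes. Same-numbered libraries had a median correlation of 0.00591 (-0.399 to 0.596, 30 pairs), and 8 of 15 libraries correlated best with their own number. Libraries of different numbers had a median of -0.00894 (-0.609 to 0.48, 60 pairs). Among pp1r3-2, topp-7m and pp1r3-2 topp4-1, same-numbered libraries were alike for replicate 1 (0.298 to 0.456) and replicate 3 (0.416 to 0.596). For replicate 2 the range was -0.0197 to 0.266. Pairs of different numbers among these genotypes ran from -0.609 to 0.465. The highest was topp-7m replicate 1 with pp1r3-2 topp4-1 replicate 2, so likeness was not limited to equal numbers. Between pp1r3-2 topp4-1 and wild type the values were -0.399, 0.0449 and -0.376 for replicates 1, 2 and 3. With the replicate number as a block, the members called stayed at 2 in pp1r3-2, 4 in topp4-1, 2 in topp-7m and 0 in pp1r3-2 topp4-1 over wild type, and at 4 over topp4-1. F3'H in topp4-1 over pp1r3-2 (0.0601) and CHI in topp-7m over pp1r3-2 topp4-1 (0.0560) lost their calls. With 3 libraries a genotype, the spread of DFR and LDOX and the few MYB12 counts limit what could be detected.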

Other observations

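In pp1r3-2 over wild type 19.3% of all genes passed (10.9% higher, 8.33% lower). Of 4 phenylpropanoid MYB repressors, 1 rose and 2 fell. Of 9 anthocyanin repressors, 2 rose and 0 fell, while CHS and FLS1 did not pass. In the first group MYB3 rose by 0.94 ± 0.10 on the log2 scale, while MYB32 (-1.16 ± 0.24) and MYB7 (-0.64 ± 0.19) fell. The MYB7 call was lost without pp1r3-2 replicate 2 (adjusted p = 0.0644) or 3 (0.0923) or wild-type replicate 3 (0.145). In the second group the nitrate-responsive repressors LBD39 and LBD37 rose by 0.94 ± 0.10 and 0.67 ± 0.11. MYB90 fell (-1.74 ± 0.47, adjusted p = 0.0164, edgeR quasi-likelihood test with Benjamini-Hochberg adjustment), a call lost without pp1r3-2 replicate 1 (0.0606) or 3 (0.0584). MYB3 also rose in topp-7m (0.97 ± 0.10) and in pp1r3-2 topp4-1 (0.69 ± 0.10), so it was higher in all 4 mutants than in wild type. MYB32 went the other way and was lower in all 4. It stood at -1.16 ± 0.24 in topp4-1, -0.82 ± 0.24 in topp-7m (adjusted p = 0.0345) and -0.94 ± 0.24 in pp1r3-2 topp4-1 (adjusted p = 0.0161). Of all tested genes, 27.0% were higher and 26.5% lower in topp4-1. The shares were 6.18% and 5.46% in topp-7m, and 7.65% and 5.47% in pp1r3-2 topp4-1. These comparisons share the same wild-type libraries, and the share of genes called one way in all 4 mutants was not counted.

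AT2G38240 carries the symbol ANS in the deposited table, a name also used for LDOX, but it is another gene and was kept apart. It reached 0.583 to 1.45 CPM in pp1r3-2, 1.04 to 1.94 CPM in topp-7m, 1.29 to 1.81 CPM in pp1r3-2 topp4-1, 5.03 to 7.37 CPM in topp4-1 and 32.0 to 55.6 CPM in wild type, with every mutant library below every wild-type one. All mutants are set against the same wild-type libraries, so these are not independent results. The share of all genes with this pattern was not counted.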
